A study of Mus musculus with 6 samples.

Results

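The nuclear-encoded subunits of the respiratory chain and of ATP synthase were examined in RNA-seq libraries of mouse dendritic cells cultured with or without DB2313. Members were the protein-coding rows outside the mitochondrial chromosome whose symbol began with Nduf and one of the letters a, b, c, s or v followed by a digit, with Uqcr, with Cox4 to Cox8 or with Atp5, or was Sdha, Sdhb, Sdhc, Sdhd or Cyc1. The rule took 86 of the 54532 rows of the table. These rows carried 85 symbols, because Atp5o stood under 2 identifiers. Complex I accounted for 37 rows, complex II for 4, complex III for 9, complex IV for 18 and complex V for 18. A rule by symbol is not a list of proteins found in the purified complexes. It passed over Ndufab1, an accessory subunit of complex I, and it kept Ndufa4, which is now counted with complex IV, Cox7a2l, which helps complexes join into supercomplexes, and Atp5s, a coupling factor. These genes are described under the complex that their symbol names.

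There were 3 control and 3 DB2313 libraries, and 78 of the 86 members had counts high enough to be tested. The labels gave dendritic cells as the cell type of all 6 libraries, kept in medium with serum, and named no strain, sex, age, dose or time. The study itself wrote about macrophages. DB2313 is a small molecule that the study used as an inhibitor of Spi1, also called PU.1, an ETS family transcription factor of myeloid cells. The count columns were named BMDC and SPI1 rather than by treatment and were read as the control and the DB2313 libraries, so every direction below rests on that reading. No label tied the libraries to separate animals or cultures, so the p-values measure the spread between these libraries, which may be technical.

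The respiratory chain passes electrons from NADH through complex I, and from succinate through complex II, to ubiquinone, then through complex III and cytochrome c to complex IV, where oxygen is reduced. Complexes I, III and IV pump protons, and complex V, the ATP synthase, uses the gradient to make ATP. Complex II is encoded wholly in the nucleus, whereas the other complexes are built from nuclear subunits imported from the cytosol and from a few subunits made inside the mitochondrion from its own DNA. Transcripts of the nuclear subunits are made at many separate loci and are commonly tied to the transcription factors NRF1 and GABP, the latter an ETS factor like PU.1.

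Promoters are shown for 4 members to let the ETS-like letters be seen beside the values. Ndufs8 is the one member that was called changed. Uqcrh and Cox8a had the highest level per length in complexes III and IV, and Atp5b was the second highest of complex V. Each run is the RefSeq window of 300 bases in GRCm38.p6, from 250 before to 50 after the RefSeq start of the gene, written 5′ to 3′ on the strand of the gene. This start can differ from that of the deposited gene, since the Ndufs8 window lies wholly before the gene as deposited and the RefSeq start of Atp5b lies inside it. Capitals mark CTTCCGG, the reverse complement of the GABP motif CCGGAAG. The Ndufs8 window is chr19:3912725-3913024 on the minus strand, that of Uqcrh is chr4:116075021-116075320 on the minus strand, that of Cox8a is chr19:7217567-7217866 on the minus strand, and that of Atp5b is chr10:128083057-128083356 on the plus strand.
Ndufs8: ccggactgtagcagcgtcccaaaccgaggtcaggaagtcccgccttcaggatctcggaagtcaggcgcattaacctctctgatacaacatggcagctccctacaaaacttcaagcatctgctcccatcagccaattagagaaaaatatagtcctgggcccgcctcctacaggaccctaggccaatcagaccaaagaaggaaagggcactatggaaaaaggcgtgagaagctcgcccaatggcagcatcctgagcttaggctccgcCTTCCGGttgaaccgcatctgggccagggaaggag
Uqcrh: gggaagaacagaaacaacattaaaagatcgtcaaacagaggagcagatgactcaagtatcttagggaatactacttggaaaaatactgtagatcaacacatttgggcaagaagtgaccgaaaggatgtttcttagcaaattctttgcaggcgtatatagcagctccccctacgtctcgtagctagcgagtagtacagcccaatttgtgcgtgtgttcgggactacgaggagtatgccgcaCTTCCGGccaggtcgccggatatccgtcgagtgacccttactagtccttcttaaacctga
Cox8a: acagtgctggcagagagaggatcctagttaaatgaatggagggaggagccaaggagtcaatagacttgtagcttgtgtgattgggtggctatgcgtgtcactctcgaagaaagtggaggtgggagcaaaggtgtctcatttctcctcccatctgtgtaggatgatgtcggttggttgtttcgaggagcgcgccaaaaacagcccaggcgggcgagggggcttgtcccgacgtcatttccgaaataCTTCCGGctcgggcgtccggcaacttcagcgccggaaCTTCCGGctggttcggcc
Atp5b: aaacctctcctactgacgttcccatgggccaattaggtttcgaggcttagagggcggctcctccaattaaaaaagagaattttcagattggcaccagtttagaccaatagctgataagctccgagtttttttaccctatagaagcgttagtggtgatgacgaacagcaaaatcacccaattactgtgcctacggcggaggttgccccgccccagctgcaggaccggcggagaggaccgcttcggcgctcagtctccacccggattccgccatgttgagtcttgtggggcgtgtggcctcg

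Counted from 0 at the RefSeq start, the first letter of the match lay at 15 in Ndufs8 and at -10 in Uqcrh, and Cox8a had matches at -5 and 32. Atp5b had none, nor did Ndufv1 and Sdha, whose windows are not printed. The 4 printed windows are therefore richer in the motif than the members as a whole. Of the 85 symbols, 66 had a window in the RefSeq table, and motifs were searched on both strands. CCGGAAG was found in 16 of the 66 member windows (24.2%) and in 13.3% of the windows of all 16497 protein-coding genes. GCGCATGC, the NRF1 motif, was found in 10 member windows (15.2%) against 4.1% of all. A window with either motif was found for 21 members (31.8%) against 16.5% of all. GAGGAAGT, a motif of PU.1, was found in 3 member windows (4.55%), those of Atp5j, Ndufa5 and Ndufs4, against 3.61% of all. CCGGAAG and GAGGAAGT share the ETS core GGAAG, but no single stretch can match both in full. The SP1 motif GGGCGG was found in 26 member windows (39.4%) and in 51.0% of all. A match of letters is a description and does not show binding.

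Levels were compared between genes as CPM per kilobase of deposited gene length (CPM per kb), where CPM is the count scaled to the TMM-adjusted library size. On this scale the 4 highest members were Cox8a, Cox6a1, Cox7a2l and Cox4i1 of complex IV, whereas in CPM, with no division by length, Atp5a1 (858) and Atp5b (854) were higher than these. Cox8a stood at 483 ± 23.5 CPM per kb in the control libraries (SD, n = 3), Cox6a1 at 319, Cox7a2l at 311 and Cox4i1 at 296. The highest members of the other complexes were Atp5a1, the α subunit of the F1 head of ATP synthase (274 ± 3.87 CPM per kb), and its catalytic partner Atp5b, the β subunit (201 ± 2.37), then Uqcrh, the hinge protein of complex III (140 ± 10.6), Sdhd, a membrane anchor of complex II (135 ± 2.42), and Ndufa2, an accessory subunit of complex I (134 ± 7.73). The lowest tested members were Ndufb2 at 0.466, Atp5s at 2.5 and Cox6b2 at 3.09 CPM per kb. The deposited length equalled that of all annotated exons joined for 80 of the 86 rows. The use of single exons was not measured. Ndufb2 has a deposited length of 5628 bp, but it was also low with no division by length, at a control mean of 2.62 CPM. Transcripts of 2 other genes matched it with at least 95% identity over at least 100 bp, and 7.94% of its exon length overlaps other genes. The part of reads lost to these was not tested.

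**Figure D1:**
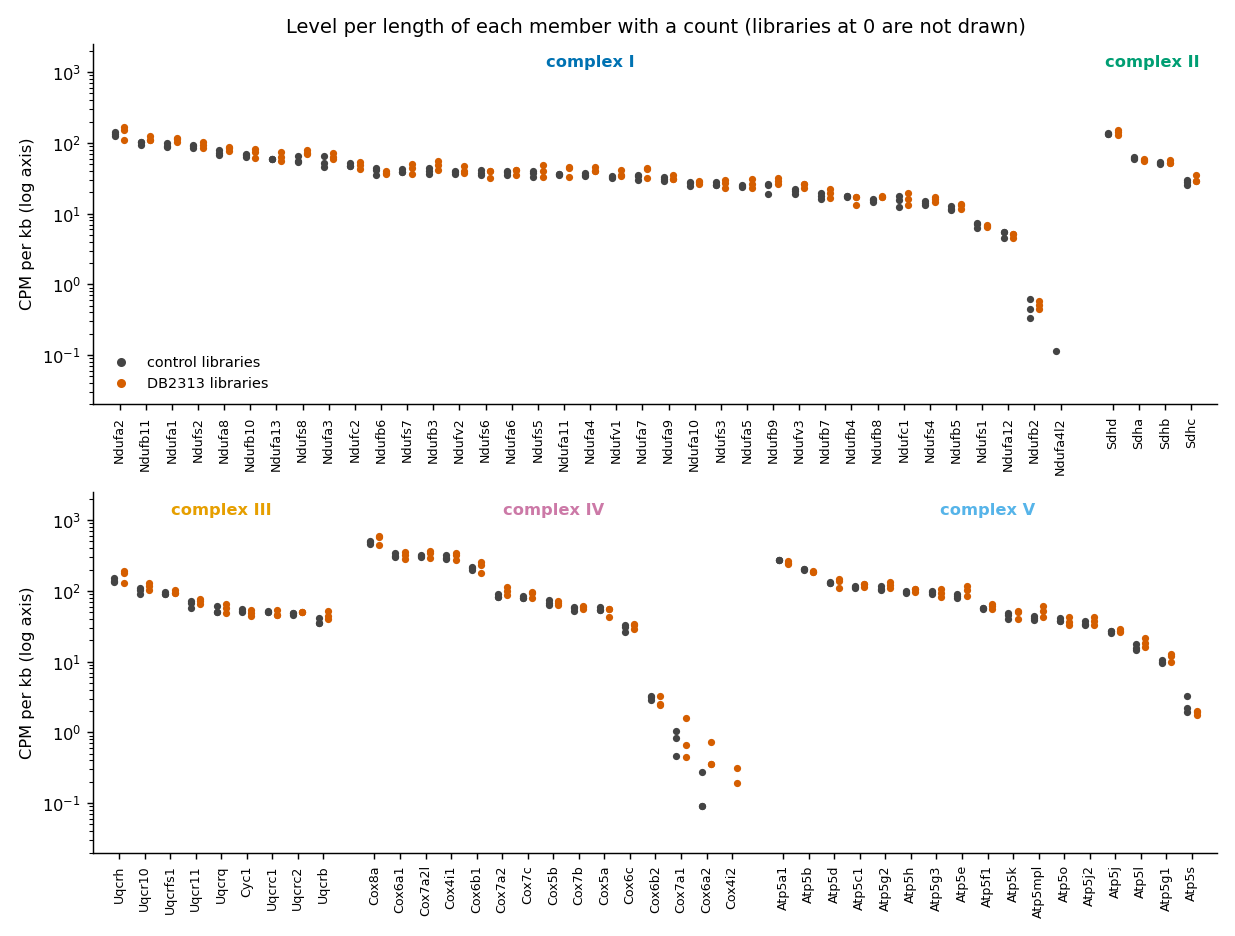
Level per length of the members in CPM per kb on a log axis, 1 column per gene, ordered within each complex by the control mean, with 3 control libraries (grey) and 3 DB2313 libraries (orange) as points. Both groups lie side by side in most genes, Cox8a is the highest at 483 CPM per kb in the controls, and the lowest columns are those of Ndufb2 and of the isoforms Cox7a1, Cox6a2, Cox4i2 and Ndufa4l2.

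Several subunits exist as alternative isoforms, one of broad use and one used in muscle, lung, testis or under low oxygen. The cells used the broad forms almost exclusively. Cox4i1 took all 22079 control counts of the Cox4i pair and 25523 of 25530 in the DB2313 libraries. Cox4i2, the isoform known from lung and low oxygen, had 0 counts in every control library, which allows a share of up to 0.0136%, and 4, 3 and 0 counts with DB2313. Cox6a1 took 99.95% of the Cox6a counts in control libraries (exact binomial 95% interval 99.89% to 99.99%) and 99.85% with DB2313. Cox6a2, a muscle isoform, had 1, 1 and 3 counts in the control and 4, 10 and 4 in the DB2313 libraries. No control count was above the floor of 3 counts. All DB2313 libraries lay above all control libraries in CPM, but the counts were low and the gene was not tested. The muscle isoform Cox7a1 had 4, 7 and 9 counts against 4, 7 and 14. It made up 0.518% of the counts of Cox7a1 and Cox7a2 in the control and 0.493% in the DB2313 libraries. Cox7b2, Cox8b and Cox8c had no count in any library, and Ndufa4l2 had 2, 0 and 0 counts against 0, 0 and 0. Cox6b2, a testis isoform, was the one minor isoform that could be tested. It had 47 to 60 counts per library and made up 2.25% of the Cox6b counts in the control (1.92% to 2.62%) and 1.88% in the DB2313 libraries (1.6% to 2.19%), intervals that overlap and cover counting error only.

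The 3 genes Atp5g1, Atp5g2 and Atp5g3 encode the same mature c subunit of the membrane ring of ATP synthase. Per length, Atp5g2 gave 50.8% and Atp5g3 44.5% of their control level, and Atp5g1, with a deposited length of 4912 bp, gave 4.70%. With DB2313 the shares per length were 53.2%, 41.7% and 5.09%. By counts the control shares were 41.4%, 47.3% and 11.2%, so the order of Atp5g2 and Atp5g3 depended on the division by length. Transcripts of other genes with at least 95% identity over at least 100 bp were found for Atp5g1 (10 genes) and Atp5g2 (2 genes). The log2 fold changes were 0.16 ± 0.08 for Atp5g2, -0.01 ± 0.09 for Atp5g3 and 0.20 ± 0.10 for Atp5g1 (SE), with edgeR adjusted p of 0.270, 0.966 and 0.229. None of the 3 passed the test.

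The main comparison asked whether the subunits changed with DB2313. Of the 78 tested members, 1 was higher and none was lower at an edgeR quasi-likelihood adjusted p under 0.05 over all 14174 genes tested. Across all genes tested 4.66% were higher and 5.94% lower. At an unadjusted p under 0.05, 15 members were higher and 0 lower, against 10.9% and 12.5% of all genes. All DB2313 libraries lay above all control libraries in 9 of the 78 tested members and below them in 4, against 12.9% and 14.5% of all genes. DESeq2 called 2 members higher and limma-voom 1, and neither called a member lower. In bulk libraries such as these, fewer cells of a type and less RNA per cell cannot be told apart.

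The fold changes of the members were small and mostly above 0. The median log2 fold change was 0.10 over the 78 members and 8.2e-04 over all genes tested, with 62 members above 0 and 16 below. The members ranged from -0.39 for Atp5s to 0.35 for Ndufs8, that is, no tested member moved as far as 1.5-fold in either direction on its point value. The 95% interval of the change lay within 1.2-fold for 27 members and within 1.5-fold for 74 of the 78, compared with 2383 and 8841 of the 14174 genes tested.

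Ndufs8 (ENSMUSG00000059734, chromosome 19, 3908870 to 3912717, minus strand) encodes a core subunit of complex I that carries iron-sulfur clusters on the way from NADH to ubiquinone. Its level was 51.4, 54.0 and 62.2 CPM in the control and 69.4, 76.7 and 66.9 CPM in the DB2313 libraries. The lowest DB2313 library lay above the highest control library. The log2 fold change was 0.35 ± 0.09 (SE, adjusted p = 0.0237). The call was lost without control replicate 1 (adjusted p = 0.135), without control replicate 2 (0.112) or without DB2313 replicate 2 (0.155), and it held in 15 of 20 alternative fits.

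The other core subunits of complex I did not pass the test. For the 7 core subunits encoded in the nucleus the median change was 0.11 on the log2 scale, with Ndufs1, the largest of them, at the lower end (-0.06 ± 0.09, SE). Among the 29 tested accessory subunits the median was 0.13. Ndufv1, which holds the site where NADH is oxidised, stood at 80.8, 85.9 and 84.3 CPM against 103.7, 89.2 and 86.6 CPM, so the groups did not overlap, but DB2313 replicates 2 and 3 lay close to the controls (log2 fold change 0.15 ± 0.08, adjusted p = 0.290). Ndufv3, an accessory subunit beside it, stood at 47.1, 52.7 and 54.8 CPM against 65.7, 65.6 and 56.7 CPM. DB2313 replicates 1 and 2 were well apart from the controls there and replicate 3 was close to them (0.28 ± 0.09, adjusted p = 0.0610).

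Ndufa2 and Ndufb11 had the highest levels per length in complex I. Ndufa2 was measured at 76.9, 72.4 and 81.2 CPM against 97.0, 85.6 and 63.4 CPM, so its DB2313 libraries lay on both sides of the controls (0.09 ± 0.12, and -0.03 with an offset for gene length). Ndufb11 was measured at 85.5, 93.3 and 94.6 CPM against 113, 100.8 and 98.5 CPM (0.19 ± 0.08, adjusted p = 0.159). Its exons overlap Rbm10 on the other strand over 12.9% of their length. The lowest change in the complex was that of Ndufb4, at 33.6, 33.4 and 32.9 CPM against 32.7, 32.6 and 25.7 CPM, where replicate 3 made most of the difference (-0.13 ± 0.11, adjusted p = 0.505).

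The 4 genes of complex II, which also serves as succinate dehydrogenase of the tricarboxylic acid cycle, had a median log2 fold change of 0.06. Sdha, the flavin-carrying subunit, stood at 246.7, 256.5 and 251.0 CPM against 226.8, 239.3 and 240.8 CPM. The groups did not overlap, and the log2 fold change was -0.09 ± 0.07 (SE, adjusted p = 0.434). Sdhc, a membrane anchor, had the highest value of the complex (0.15 ± 0.09, adjusted p = 0.349). Sdhd was measured at 166.1, 163.3 and 169.3 CPM against 185.9, 177.0 and 156.8 CPM, with DB2313 libraries on both sides of the controls (0.06 ± 0.08, and -0.02 with an offset for gene length).

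In complex III the median was 0.08 over 9 genes. Uqcrb, which binds near the ubiquinone site, stood at 30.6, 30.5 and 36.1 CPM against 45.4, 38.8 and 35.0 CPM (0.29 ± 0.11, adjusted p = 0.112). Uqcrh (chromosome 4, 116066965 to 116075071, minus strand) stood at 163.8, 168.2 and 188.3 CPM against 238.0, 224.8 and 162.3 CPM. Its log2 fold change was 0.27 ± 0.11 (adjusted p = 0.167). In both genes DB2313 replicates 1 and 2 were above every control library and replicate 3 was within or below the control range. Cyc1, the cytochrome c1 that hands electrons to cytochrome c, stood at 112.9, 108.3 and 119.9 CPM against 117.1, 95.6 and 104.7 CPM (-0.10 ± 0.08, adjusted p = 0.508). Uqcr10, a small subunit, had a log2 fold change of 0.19 ± 0.10 and an adjusted p of 0.249.

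In complex IV, cytochrome c oxidase, the median was 0.08 over the 12 tested genes. Cox7a2 had the highest value, at 76.8, 77.6 and 84.9 CPM against 108.0, 94.6 and 83.2 CPM (0.26 ± 0.09, adjusted p = 0.101). Cox8a (chromosome 19, 7215158 to 7217616, minus strand) stood at 264.4, 250.2 and 275.7 CPM against 323.3, 317.0 and 244.6 CPM (0.16 ± 0.09, adjusted p = 0.323), so replicate 3 was the lowest of all 6 libraries. Cox4i1, the regulatory subunit named above, stood at 445.8, 439.3 and 490.7 CPM against 528.2, 491.0 and 422.7 CPM (0.07 ± 0.08, adjusted p = 0.692). Cox6b2 had the lowest log2 fold change of the complex (-0.17 ± 0.25). Cox6b1 (0.09), Cox7a2l (0.08), Cox7b (0.06) and Cox6a1 (0.005) lay close to 0 and were below it with an offset for gene length. Ndufa4, the subunit of complex IV with a complex I symbol, lay at 0.25 ± 0.09 (adjusted p = 0.0773).

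In complex V no gene passed the test. The 5 genes of the F1 head had a median log2 fold change of 0.01, the 4 tested genes of the peripheral stalk 0.07, the 3 genes of the c ring 0.16 and the 4 small membrane subunits 0.17. The values of these parts overlap, and the medians were not tested against each other. Atp5b (chromosome 10, 128083273 to 128090391, plus strand) stood at 844.0, 852.9 and 864.0 CPM against 792.8, 789.4 and 817.3 CPM. Atp5a1 stood at 845.5, 869.6 and 860.0 CPM against 821.4, 780.0 and 757.8 CPM. All DB2313 libraries were below all control libraries in both genes, with log2 fold changes of -0.09 ± 0.06 and -0.13 ± 0.06 and adjusted p of 0.400 and 0.253. At the other end was Atp5mpl, a small membrane subunit, at 49.7, 47.0 and 54.3 CPM against 74.1, 62.8 and 52.0 CPM (0.32 ± 0.11, adjusted p = 0.0838). Atp5s had the lowest value (-0.39 ± 0.24, adjusted p = 0.366) at a level of 3.5 to 6.8 CPM.

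**Figure D2:**
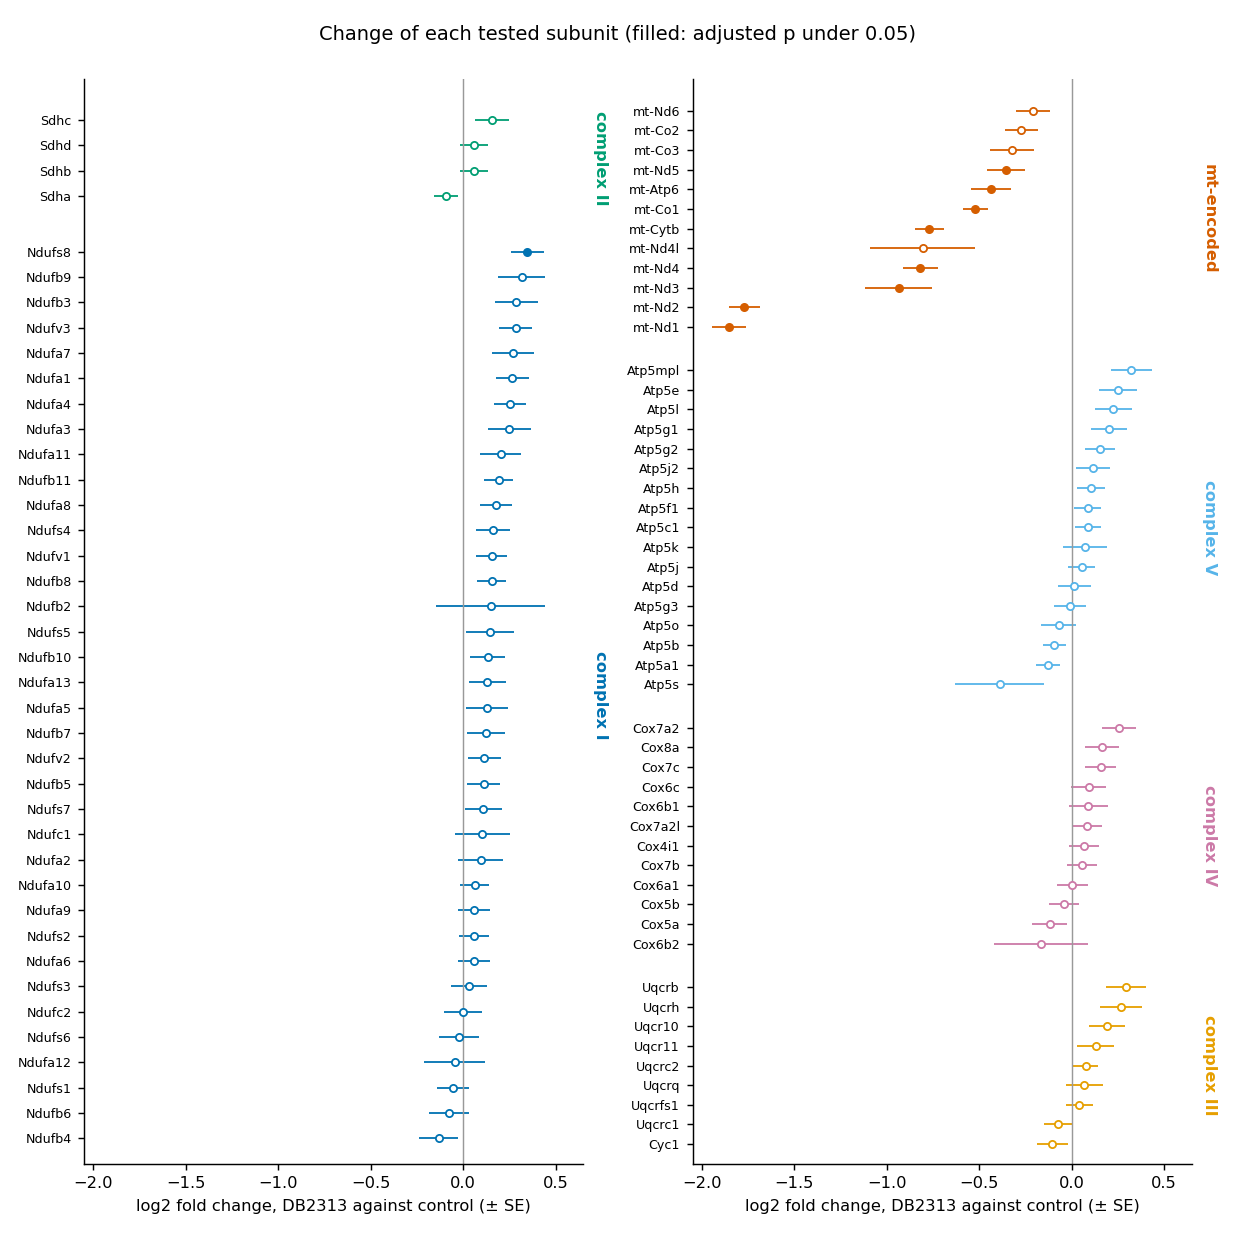
Log2 fold change of DB2313 against control for each of the 78 tested members and for 12 mitochondrially encoded (mt-encoded) subunits, with bars of 1 SE, ordered by value within each complex, and filled points for an adjusted p under 0.05. Ndufs8 is the 1 filled point among the nuclear genes, and 8 of the 12 mt-encoded subunits are filled and lie below 0.

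The members moved together between the DB2313 libraries. DB2313 replicate 1 was the highest of the 3 DB2313 libraries in 64 of the 78 members (82.1%, against 37% of all genes tested), and replicate 3 was the lowest in 65 (83.3%, against 36.6%). Replicate 1 lay above every control library in 63 members, replicate 2 in 48 and replicate 3 in 9. These were 80.8%, 61.5% and 11.5% of the members, against 33.9%, 31.4% and 30.9% of all genes tested. On the log2 scale and relative to the mean of the controls, the median level of the members was -0.01, -0.05 and 0.07 in the control libraries in order of their numbers, and 0.21, 0.12 and -0.05 in the DB2313 libraries. The difference of the group means of this median was 0.09 with an exact permutation p of 0.3, where 0.1 is the smallest value that 3 against 3 can give. Over the members, the counts of DB2313 replicates 1 and 3 differed by a chi-square of 13.8 per degree of freedom and those of replicates 2 and 3 by 9.70, compared with 4.51 for replicates 1 and 2 and 3.27 to 5.45 between control libraries.

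**Figure D3:**
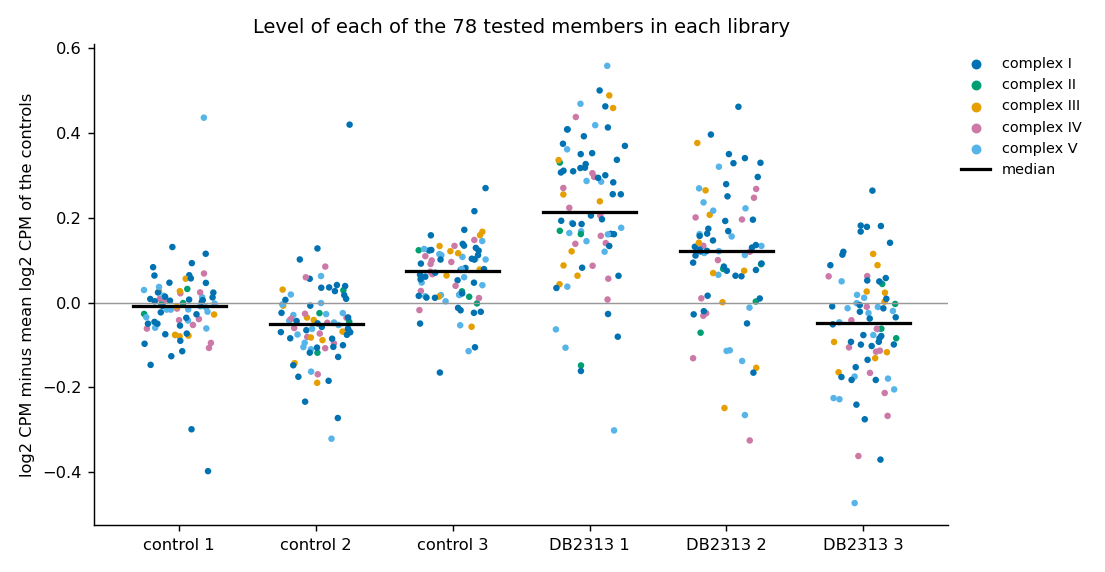
Level of each of the 78 tested members in each library as log2 CPM minus the mean log2 CPM of the 3 controls, with 1 point per gene coloured by complex and a bar at the median. The medians of DB2313 replicates 1 and 2 lie at 0.21 and 0.12, and that of replicate 3 lies at -0.05, among the control libraries.

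The count of calls depended on that library. Replicate 3 was the lowest DB2313 library in 65 of the 78 members, so leaving it out raises their fold changes by construction. The calls made without it therefore describe the dependence on this library and are not separate evidence of a change. Without DB2313 replicate 3, 24 of the same 78 members were higher (30.8%, against 7.55% of all 14527 genes tested then) and none was lower, and the median log2 fold change was 0.18. The 24 comprised 12 of 36 tested members of complex I, 3 of 9 of complex III, 4 of 12 of complex IV and 5 of 17 of complex V, and none of the 4 of complex II. Uqcrh then had a log2 fold change of 0.42 ± 0.07 (adjusted p = 2.4e-04), in place of 0.27 with all libraries, Atp5mpl of 0.44 ± 0.09 (0.00178), in place of 0.32, and Cox8a of 0.28 ± 0.07 (0.00431), in place of 0.16. Without DB2313 replicate 1 the median of the members was 0.02 and 1 member was called. Leaving out a library also changes the estimate of the spread that every gene is tested against.

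Gene length moved with these values. Most members are short genes, and when all tested genes were put in 4 equal classes by length, 57 of the 78 members were in the shortest class, up to 2352 bp. Over all tested genes the median change on the log2 scale was 0.07 in that class, 0.02 and -0.01 in the next classes and -0.05 in the longest. For the 57 members in the shortest class the median was 0.09, and for the 11, 8 and 2 members in the longer classes it was 0.11, 0.10 and 0.08. In the DB2313 libraries the shortest class of all genes had medians of 0.15, 0.08 and -0.03 over the control mean in replicates 1 to 3, the same order as the members. Across the 78 members, Spearman's rho of length with log2 fold change was -0.27, given as a description, since the points share the same 6 libraries. With an offset for length in the fit the median of the members was 0.04, and 2 members, Ndufs8 and Ndufv3, were called higher. The part of RNA length or quality in these differences was not tested.

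**Figure D4:**
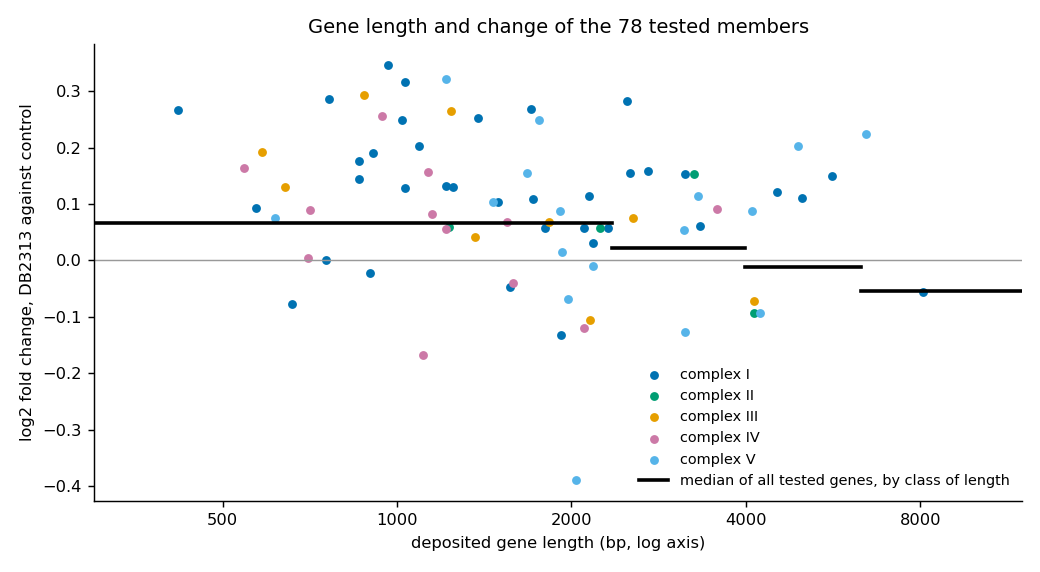
Log2 fold change of the 78 tested members against deposited gene length on a log axis, 1 point per gene coloured by complex, with black lines at the median of all tested genes in each of 4 classes of length. The line drops from 0.07 in the shortest class to -0.05 in the longest, and most members lie in the shortest class, above and below its line.

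The partner subunits made from mitochondrial DNA were lower with DB2313. Of the 13 protein genes of the mitochondrial chromosome, 12 were tested, 8 fell and none rose, with a median log2 fold change of -0.65. The largest decreases were in mt-Nd1 and mt-Nd2, membrane subunits of complex I (-1.85 ± 0.09 and -1.77 ± 0.08, SE). mt-Nd1 stood at 1978, 2445 and 2301 CPM in the control and 702, 568 and 592 CPM in the DB2313 libraries. mt-Nd3 (-0.94 ± 0.18), mt-Nd4 (-0.82 ± 0.09), the cytochrome b gene mt-Cytb of complex III (-0.77 ± 0.08), the catalytic complex IV gene mt-Co1 (-0.52 ± 0.07), mt-Atp6 of complex V (-0.44 ± 0.11) and mt-Nd5 (-0.36 ± 0.10) fell as well, with adjusted p from 1.8e-05 for mt-Cytb to 0.0375 for mt-Nd5. mt-Co1, the most abundant, was at 9598, 10833 and 9982 CPM against 7131, 6857 and 7207 CPM. mt-Nd4l (-0.81 ± 0.28, adjusted p = 0.0868), mt-Co3 (-0.32 ± 0.12, 0.0968), mt-Co2 (-0.27 ± 0.09, 0.0655) and mt-Nd6 (-0.21 ± 0.09, 0.186) did not pass, and mt-Atp8 was below 1 CPM and not tested. In 10 of the 12 tested genes the highest DB2313 library was under the lowest control library, mt-Nd5 and mt-Nd6 being the exceptions. Of all genes tested, 5.94% were called lower and 14.5% had every DB2313 library below every control library. The call of mt-Nd5 was lost without control replicate 2 (adjusted p = 0.253), control replicate 3 (0.0825) or DB2313 replicate 2 (0.173), and with library totals (0.0578) or a GC offset (0.0589), and that of mt-Atp6 without control replicate 1 (0.0542), control replicate 2 (0.107) or DB2313 replicate 2 (0.118). Without DB2313 replicate 1, mt-Co2 (0.0126), mt-Co3 (0.0103) and mt-Nd6 (0.00766) passed as well, and without DB2313 replicate 3 so did mt-Co2 (0.0353) and mt-Nd4l (0.0460).

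Nuclear copies limit some of these values. A transcript with at least 95% identity over at least 100 bp was found for 9 of the 13 mitochondrial genes, up to 1545 bp for mt-Co1 and 783 bp for mt-Co3, and it was not stated how reads with several matches were counted. Of the tested genes with no such copy, mt-Nd1 and mt-Cytb fell, and mt-Nd6 (-0.21 ± 0.09, adjusted p = 0.186) did not pass and overlapped between the groups. Among the members, 33 of 86 rows had such a match, with up to 71 for Atp5l, and their median log2 fold change was 0.12, compared with 0.08 for the members without one. A match need not be a copy of the gene. Of the 71 genes matching Atp5l, 15 were pseudogenes, and none of the 26 matching Atp5b was, the longest match there being 164 bp in Ankrd17. The 2 medians therefore do not separate genes with pseudogene copies from those without. Exons overlapped another gene by more than 10% in 12 members, 3 of them on the same strand, and without stated strandedness such reads cannot be told apart.

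The balance of nuclear to mitochondrial transcripts of the subunits was taken within each library. It covers protein genes only. Of the other genes of the mitochondrial chromosome, DESeq2 and limma-voom both called mt-Rnr1 and mt-Tp higher and mt-Tl1 lower with DB2313. The summed level of the members was 9132, 9034 and 9590 CPM in the control and 10382, 9700 and 8765 CPM in the DB2313 libraries, groups that overlap (exact permutation p = 0.6). The summed level of the mitochondrially encoded subunits was 18384, 21782 and 19731 CPM against 12740, 11802 and 12579 CPM, groups that do not. The log2 ratio of the first to the second was -1.11 ± 0.14 in control and -0.37 ± 0.13 in DB2313 libraries (SD, n = 3 each), a difference of 0.74 (exact two-sided permutation p = 0.1, the smallest value possible). Per length the difference was 0.81, and without mt-Nd1 and mt-Nd2 it was 0.60. Every DB2313 library lay above every control library in all 3 forms.

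The shift was present in each complex with subunits of both genomes. The ratio of nuclear to mitochondrial counts was 0.291 ± 0.0374 in control and 0.610 ± 0.0665 in DB2313 libraries for complex I, 0.364 ± 0.0355 and 0.651 ± 0.0471 for complex III, 0.199 ± 0.0185 and 0.299 ± 0.0371 for complex IV, and 129 ± 9.10 and 177 ± 26.3 for complex V (SD, n = 3). The groups did not overlap for any of the 4 (exact permutation p = 0.1 each, the smallest possible). The mitochondrial side of complex III was mt-Cytb alone. That of complex IV was mostly mt-Co1, at a control mean of 10137.5 CPM against 68.1 for mt-Co2 and 37.5 for mt-Co3. That of complex V was mt-Atp6 at 27.6 CPM and mt-Atp8 at 0.396 CPM. A transcript of Gm10925 matched mt-Atp6 over 678 bp, and the call of mt-Atp6 was lost without some single libraries. The summed nuclear level itself overlapped between groups in all 5 complexes, with exact permutation p from 0.3 for complex I to 1 for complex V.

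**Figure D5:**
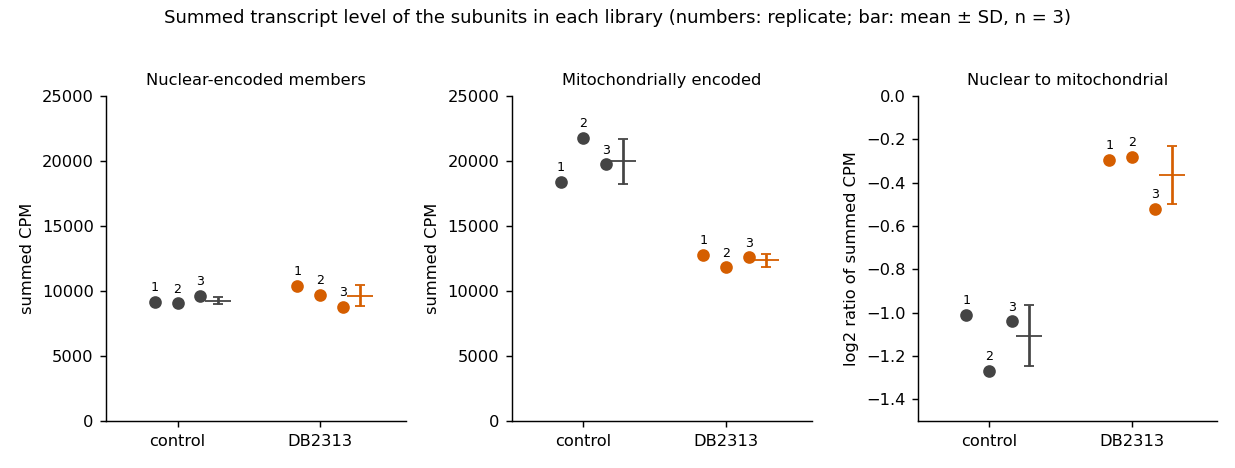
Summed CPM of the nuclear-encoded members, summed CPM of the mitochondrially encoded subunits, and the log2 ratio of the first to the second, with 1 point per library numbered by replicate and the mean ± SD of each group (n = 3). The nuclear sums overlap between 8765 and 10382 CPM, the mitochondrial sums are lower in all 3 DB2313 libraries, and the log2 ratio averages -1.11 in control and -0.37 in DB2313 libraries.

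Other genes of the same pathways were followed through lists written from general knowledge. Across all genes tested, 4.66% were higher and 5.94% lower at an adjusted p under 0.05 in the edgeR test. At an unadjusted p under 0.05 these shares were 10.9% and 12.5%. None of the 20 tested genes of the list of complex I assembly factors passed in the edgeR test. At an unadjusted p under 0.05, 1 was higher and 0 lower. That gene was Ndufab1, which the list as written also held although it encodes a subunit, and which DESeq2 called higher and limma-voom did not. It was measured at 21.6, 19.7 and 24.3 CPM against 29.3, 34.2 and 23.9 CPM, with DB2313 replicate 3 inside the control range (0.42 ± 0.13, adjusted p = 0.0547). Of 31 tested assembly factors of complexes II to V, Sdhaf2, which inserts the flavin into Sdha, rose (0.26 ± 0.08, adjusted p = 0.0472) and Coa5, an assembly factor of complex IV, fell (-0.25 ± 0.07, adjusted p = 0.0268). Both calls were lost when any control library or DB2313 replicate 2 was left out (adjusted p of 0.0922 to 0.28 for Sdhaf2 and 0.0818 to 0.149 for Coa5). None of 13 tested nuclear regulators passed, with 1 higher and 1 lower at an unadjusted p under 0.05, nor did DESeq2 or limma-voom call any.

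Among the mobile carriers and other entry points to the chain, 2 of 14 tested genes passed. Of all genes tested, 4.66% passed as higher and 5.94% as lower. Dhodh, which feeds electrons from pyrimidine synthesis to ubiquinone, rose from 9.41, 10.9 and 8.84 CPM to 15.4, 17.1 and 15.1 CPM (0.71 ± 0.14, adjusted p = 0.00332). Gpd2, the mitochondrial glycerol phosphate dehydrogenase, fell from 76.1, 78.3 and 71.0 CPM to 48.5, 57.2 and 56.9 CPM (-0.47 ± 0.09, adjusted p = 0.00262). The groups did not overlap in either gene. Of 19 tested tricarboxylic acid cycle genes, 1 passed, the mitochondrial isocitrate dehydrogenase Idh2, which rose (0.39 ± 0.09, adjusted p = 0.00890, and 0.0613 without control replicate 1).

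Of 16 tested glycolysis genes, 2 rose and 2 fell, against 4.66% and 5.94% of all genes tested. Hk3, a hexokinase of myeloid cells, rose (0.24 ± 0.07, adjusted p = 0.0415), and Pgam1, the phosphoglycerate mutase, and Pfkl, a phosphofructokinase, fell (-0.46 ± 0.07, adjusted p = 7.5e-04, and -0.25 ± 0.07, 0.0384). The calls of Hk3 and Pfkl were lost when any control library or DB2313 replicate 2 was left out (adjusted p of 0.0832 to 0.187 and 0.0811 to 0.251), that of Hk3 also with a GC offset (0.0677), and that of Pfkl also with library totals (0.0579) or no filter (0.0518). Gapdh was at 13.5, 8.22 and 9.41 CPM against 229, 8.48 and 112 CPM. Similar transcripts of other genes were not searched for Gapdh, and the counting of reads with several matches was not stated. The part of such reads in its level was not tested. DB2313 replicate 2 was at the level of the controls, and the call of edgeR (3.48 ± 0.70, adjusted p = 0.00461) was lost with the robust fit (0.225) and with limma-voom (0.213). Over these 6 lists the median log2 fold changes lay between -0.06 and 0.05.

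Total counts lay between 16146743 and 19764677. Of the markers of dendritic cells, 7 of 8 were above 1 CPM, with Cd209a near 0, and their summed level was 9720 to 9977 CPM in control and 8198 to 9699 CPM in DB2313 libraries. All 8 macrophage markers were also above 1 CPM (9609 to 10995 against 8719 to 9597 CPM), so the label could not be told from macrophages by these genes. Neutrophil markers summed to 4380 to 4931 against 4440 to 5850 CPM, mast cell and basophil markers to 2257 to 2446 against 2276 to 2761 CPM, and T cell markers to 121 to 146 against 125 to 193 CPM. B cell, fibroblast and erythroid markers stayed at or below 2.13 CPM in sum, with Dcn at 0. The dendritic cell marker Itgax fell (-0.58 ± 0.08, adjusted p = 3.2e-04), as did the macrophage markers Csf1r (-0.29 ± 0.08, 0.0324) and Mrc1 (-0.71 ± 0.14, 0.00325). The neutrophil markers Elane (0.69 ± 0.11, 5.9e-04) and Ly6g (0.56 ± 0.11, 0.00473) and the mast cell marker Fcer1a (0.34 ± 0.09, 0.0244) rose. The lists did not all move as one. Log2 fold changes were above 0 for 6 neutrophil markers and below it for 2 (down to -0.29). For the mast cell and basophil markers these counts were 5 and 1 (-0.17), and for the macrophage markers 2 and 6. All 7 tested dendritic cell markers were below 0. Fcgr1, also a macrophage marker, rose in the edgeR test (0.26 ± 0.08, 0.0477) but was not called by limma-voom. The part of a changed mixture of cells in the values of the subunits was not tested.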

How the data were processed

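Per the labels, Trizol was used for RNA and standard Illumina protocols for the libraries. What the authors deposited were unnormalised counts of reads per gene (whole numbers), 1 column for each library, beside a column of gene length. The submitters' processing notes named CASAVA 1.8, HISAT2 2.0.5 and featureCounts 1.5.0-p3, whereas the methods of the study named LifeScope for alignment and counting. The annotation, the strandedness and the treatment of reads with several matches were not given in the sources used here. Start and end equalled those of GENCODE M21 for 98.33% of 54495 shared identifiers, so coordinates are GRCm38.

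Counts were tested with the edgeR 4.0.16 quasi-likelihood test in R 4.3.3 (TMM scaling, filterByExpr, group as the only term, Benjamini-Hochberg adjustment over 14174 genes, calls at an adjusted p under 0.05), after tests on simulated data. Errors of log2 fold changes are SE of this fit. Reads carried no molecular identifiers, so intervals of shares and the floor of 3 counts cover counting error only. Alternatives were DESeq2 1.42.0, limma-voom (limma 3.58.1), robust edgeR, glmTreat against a 1.2-fold change, other scalings and filters, offsets for length and GC content (lowess, span 0.3), a replicate block, and leaving out each library or the members with copies. Copies were searched with blastn 2.17.0 among GENCODE M21 transcripts. Replicate numbers were shared between the groups, but same-numbered libraries did not deviate together (correlations 0.0035, -0.024 and -0.121), so they were not paired.

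The members, the 7 pathway lists and the 8 marker lists were chosen with earlier results of these data known. Named genes were the members called, the 2 highest per length and the highest and lowest fold change of each complex, all alternative isoforms, the mitochondrially encoded subunits, and called genes of the other lists, at most 6 per list. Ndufv1, Ndufv3, Ndufs1, Ndufb2 and the markers were named after their values were seen. The values of 1 marker gene are not reported here. The columns were matched to samples by name, BMDC as a usual short form for cultured dendritic cells and SPI1 as the target of DB2313.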

Additional observations from a re-analysis of the deposited data

How the results depend on the processing

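The count of higher members was the result most open to the processing. Against 1 in the edgeR fit it was 2 with library totals, DESeq2 or a length offset, 7 with no filter, 0 with glmTreat, 0 with a replicate block and length offset together, and from 0 to 24 when single libraries were left out, where the 24 came without DB2313 replicate 3. With no filter 27833 genes were tested, and the cause of the larger count was not tested. With the replicate block alone it was 1, and the median log2 fold change of the members was 0.0966. The block ended the calls of mt-Nd5 (adjusted p = 0.0523), Coa5 (0.0883), Pfkl (0.103), Sdhaf2 (0.111) and Hk3 (0.123) and of no other named gene. No member was lower in any of these fits. The median of the members lay between 0.0236, without DB2313 replicate 1, and 0.184, without DB2313 replicate 3, and the difference of the nuclear to mitochondrial log2 ratio between 0.659 and 0.818 with single libraries left out and at 0.596 without mt-Nd1 and mt-Nd2. Over all genes, 661 were higher and 842 lower, compared with 502 and 629 with the block, 215 and 232 with glmTreat, and 328 to 1097 and 411 to 1311 with single libraries left out. Of 960 alternative values of 48 named genes, 858 kept their direction and their side of the threshold, 27 passed it newly, 52 no longer passed it and 23, in 8 genes close to 0, changed sign. With the length offset these were Ndufa2 (-0.0347), Sdhd (-0.0185), Cox7a2l (-0.00190), Cox6a1 (-0.108), Cox6b1 (-0.0267) and Cox7b (-0.0184), and with the replicate block and length offset the same genes (-0.0435, -0.0188, -0.00306, -0.108, -0.0317 and -0.0187). With single libraries left out, Ndufa2 lay between -0.0398 and 0.248, Cox4i1 between -0.00378 and 0.153, Cox6a1 between -0.0752 and 0.0841, Cox6b1 between -0.0279 and 0.221 and Atp5g3 between -0.104 and 0.0801, with the lower end without DB2313 replicate 1 and the upper end without DB2313 replicate 3 in each. Atp5g3 was also positive with library totals (0.0119), no filter (4.7e-04) and a GC offset (0.00274). With 3 libraries per group, the 95% interval of the change was narrow enough to lie within 1.2-fold for 27 of 78 members.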

Other observations

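Rows whose symbols matched the rule but which were not protein-coding were left out of the members. The highest of them was Ndufb1-ps, annotated as a non-coding transcript at a bidirectional promoter, with 563, 534 and 587 counts in the control and 672, 761 and 669 counts in the DB2313 libraries. The other 11 were processed pseudogenes with at most 22 counts in a library, the highest being Ndufb4c, and 4 of them had no count. These rows were given no test here.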
